A study of Mus musculus with 39 samples.

Results

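Dendritic cells (DC) sorted from mouse lymph nodes 24 h after immunization with OVA-CpG particles were compared with DC sorted from the lymph nodes of non-immunized mice. The comparison holds 4 of the 39 samples of the series, 2 per group, assigned to the groups by their labels alone. It was chosen with earlier results of these data known and belongs to a time course of 10 DC libraries. The OVA 24 h group came from wild-type C57BL/6 mice aged 8 to 12 weeks that were injected in the hock with nanoparticles holding ovalbumin (OVA), the Toll-like receptor 9 agonist CpG and the dye rhodamine 6G. The non-immunized group came from mice of the same strain, genotype and age that were given no particles, so antigen, CpG, particle and injection cannot be told apart between these groups. Beside them stand 2 libraries from mice given particles with CpG and no OVA at 24 h, 2 from mice given OVA-CpG particles at 12 h, and a separate experiment with 5 libraries from OVA-CpG particles at 20 h and 5 of its own non-immunized DC. All of these came from popliteal and inguinal nodes of wild-type C57BL/6 mice of that age. The series description says that mice had been engrafted with OVA-specific T cells (OT-I and OT-II), but the labels of these groups do not say whether their mice carried them. The fits also held 2 libraries from particles with CpG and no OVA at 12 h and 5 from BSA-CpG particles at 20 h. These too came from mice aged 8 to 12 weeks and entered the estimate of spread. The labels do not tie replicates to single animals, and every p-value here reflects the spread between the libraries of its experiment alone.

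Dendritic cells take up antigen in tissues, process it and show it to T cells on MHC molecules. When a DC meets a microbial signal such as CpG, it matures: uptake receptors go down, MHC, costimulatory ligands and cytokines go up, and the chemokine receptor Ccr7 guides the cell to the T cell zone of the lymph node. Type I interferon released in such a response acts on DC through STAT and IRF factors and induces a large set of antiviral and antigen processing genes. NF-kB factors induce a further set that covers cytokines, survival genes and the feedback inhibitors of NF-kB itself.

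Promoters of some genes of the interferon and NF-kB parts of the response are shown first, each of them holding the motif marked in it. Each window was read from 250 bases before to 50 bases after a gene's start in RefSeq (build GRCm38.p6) and is written 5′ to 3′ in the direction of the gene. The first motif, GAAANNGAA, lies inside the interferon-stimulated response element, and its matches on either strand are in capitals, with up to 20 flanking bases in lower case on each side. The genes shown are an antiviral ubiquitin-like protein (Isg15), an antiviral enzyme (Rsad2), an inhibitor of viral RNA (Ifit3), a guanylate-binding protein (Gbp2), a chemokine (Cxcl10) and the ligand PD-L1 (Cd274), which all rose at 24 h.
Isg15 (chr4:156200856-156200916, minus strand): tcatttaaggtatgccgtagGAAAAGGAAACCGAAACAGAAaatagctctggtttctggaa
Rsad2 (chr12:26456543-26456591, minus strand): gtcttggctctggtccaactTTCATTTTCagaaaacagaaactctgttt
Ifit3 (chr19:34583354-34583455, plus strand): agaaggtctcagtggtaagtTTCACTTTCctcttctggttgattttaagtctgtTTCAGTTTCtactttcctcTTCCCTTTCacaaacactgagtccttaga
Gbp2 (chr3:142620585-142620633, plus strand): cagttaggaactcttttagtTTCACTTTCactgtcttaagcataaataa
Cxcl10 (chr5:92349074-92349122, minus strand): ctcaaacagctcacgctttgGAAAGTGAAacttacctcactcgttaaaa
Cd274 (chr19:29367342-29367390, plus strand): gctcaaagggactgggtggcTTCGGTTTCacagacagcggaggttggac

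The Isg15 stretch holds 3 overlapping matches, the first of them 78 bases before the start. In Gbp2 the single match begins 58 bases before the start. The second motif, GGANNTTCC, lies inside a common kappa B consensus and is shown in capitals for genes of the NF-kB part that rose. These are the inhibitor of NF-kB Nfkbia, the ubiquitin-editing inhibitor Tnfaip3, the adhesion ligand Icam1 and the cytokine Il6.
Nfkbia (chr12:55492648-55492845, minus strand): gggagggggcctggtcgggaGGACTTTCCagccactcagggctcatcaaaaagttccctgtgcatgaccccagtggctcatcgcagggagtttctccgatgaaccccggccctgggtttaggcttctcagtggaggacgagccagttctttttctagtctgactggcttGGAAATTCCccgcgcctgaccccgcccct
Tnfaip3 (chr10:19015411-19015454, minus strand): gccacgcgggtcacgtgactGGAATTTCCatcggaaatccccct
Icam1 (chr9:21015767-21015815, plus strand): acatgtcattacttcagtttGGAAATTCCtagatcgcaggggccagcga
Il6 (chr5:30013051-30013099, plus strand): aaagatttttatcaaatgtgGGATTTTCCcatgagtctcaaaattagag

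Windows were matched by symbol to 7299 of the 9428 genes tested, and a gene with several starts gave several windows. Over all of them, 713 of 9292 windows (7.67%) held GAAANNGAA on either strand. The motif was in 123 of the 956 windows of genes called higher (12.9%) and in 18 of the 381 windows of genes called lower (4.72%). It was in 13 of 24 windows of the antiviral effectors (54.2%), in 9 of 11 windows of the interferon-induced GTPases (81.8%) and in 8 of 12 windows of the PARP and TRIM genes (66.7%). For maturation and migration genes the count was 3 of 21 windows (14.3%). GGANNTTCC was in 453 of the 9292 windows of all genes tested (4.88%), in 63 of 956 windows of genes called higher (6.59%) and in 17 of 381 of those called lower (4.46%). It was in 5 of 20 windows of NF-kB genes (25.0%) and in 0 of 21 windows of maturation and migration genes. Both motifs stood in 45 windows of tested genes and overlapped in 4. These counts describe letters in the windows and were not tested.

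The time course libraries held 612017 to 1329203 counts each (781732 and 827829 in the OVA 24 h libraries, 1226295 and 1113872 in the non-immunized libraries). Levels are given in CPM, counts per 1e+06 of a library's total after TMM normalization, with a value for each library in the order of its replicate number (OVA-1 and OVA-2 for OVA 24 h, NI-1 and NI-2 for non-immunized). Changes are log2 fold changes of OVA 24 h over non-immunized ± SE. A gene was called when its p from edgeR's quasi-likelihood test, adjusted by Benjamini-Hochberg over all 9428 genes tested, was under 0.05. By this rule 1332 genes (14.1%) were called, 962 higher (10.2%) and 370 lower (3.92%), while the median change of all genes tested was -0.03. DESeq2 called 738 higher and 149 lower, which is 83.2% higher calls, against 72.2% with edgeR. Leaving out a library gave 601 higher and 66 lower calls without OVA-1, 828 and 226 without OVA-2, 642 and 141 without NI-1, and 543 and 98 without NI-2. The gene lists of the pathways hold 496 genes, of which 434 had enough counts to be tested, and a gene could enter the test through its higher group alone. Shares of called members in the gene groups below are to be read against 10.2% for rises and 3.92% for falls. The lists were chosen with earlier results of these data known, so these shares are a description. Statements that groups did not overlap or were apart describe the libraries named and are not tests. With so few libraries unchanged genes can stand apart too, and the share of all genes that did so is not given here.

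The labelled identity was compared with marker genes. Genes named with the label as markers of these cells (Ccr7, Fscn1, Socs2 and Il12b) summed to 4328 and 3071 CPM in the OVA 24 h libraries and to 461 and 343 CPM in the non-immunized libraries. The DC growth factor receptor Flt3 had 147 and 136 CPM in the OVA 24 h libraries, against 23.6 and 16 CPM in the non-immunized libraries (log2 2.82 ± 0.26, adjusted p = 1.77e-06). Markers of conventional DC summed to 6929 and 6245 CPM at 24 h and 3791 and 2293 CPM without immunization, and 4 of the 9 tested rose (2 without OVA-1 or under DESeq2 and 1 without NI-2). Zbtb46, a transcription factor that defines conventional DC, was too low to test, at 5.55 and 8.45 CPM against 0.739 and 2.39 CPM, and the integrin Itgax (CD11c) stood at 30.5 and 42.3 CPM against 42.1 and 28.7 CPM and was not called. Siglech, a surface receptor of plasmacytoid DC, was at 1.39 and 1.21 CPM at 24 h and at 0 in both non-immunized libraries. Plasmacytoid DC markers summed to 752 and 1021 CPM at 24 h against 875 and 881 CPM. Of the 8 tested, 3 rose and 2 fell, and the called members Tcf4, Pld4 and Ly6d lost their calls under DESeq2.

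T cell transcripts were plentiful in both groups of sorted cells. The 18 T cell markers summed to 4726 and 5288 CPM in the OVA 24 h libraries and to 8799 and 8779 CPM in the non-immunized libraries, and 12 of the 18 fell, none rose. Without OVA-1, NI-1 or NI-2 the count was 4, 6 or 5. Cd3e, a chain of the T cell receptor complex, had 125 and 134 CPM in the OVA 24 h libraries, against 242 and 225 CPM in the non-immunized libraries (log2 -0.85 ± 0.21, adjusted p = 0.0106), a call lost in those same fits. Thy1, a surface glycoprotein of T cells, had 599.6 and 653 CPM in the OVA 24 h libraries, against 1504 and 1512 CPM in the non-immunized libraries (log2 -1.27 ± 0.26, adjusted p = 0.00277) and kept its call. Conventional DC and labelled markers were thus higher in sum, and T cell markers lower, in the same 2 libraries. In such bulk samples fewer cells of a type and less RNA per cell cannot be told apart, and the part of this shift in the changes below was not tested. In the separate 20 h experiment T cell markers summed to 192 to 406 CPM in the OVA libraries and 209 to 328 CPM in the non-immunized libraries, and conventional DC markers to 15586 to 30339.5 CPM against 18429 to 35348 CPM.

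Sums of other marker lists differed as well. Neutrophil markers summed to 493 and 2643 CPM at 24 h against 193 and 146 CPM, the second OVA library being the highest, and 6 of 9 tested rose (2 without OVA-2 and 3 without NI-2). Monocyte and macrophage markers summed to 849 and 1193 CPM against 1833 and 1996 CPM and 3 of 9 fell. B cell markers summed to 583 and 1051 CPM against 498 and 471 CPM and 2 of 10 rose (0 without OVA-2, NI-1 or NI-2, and 1 under DESeq2). NK cell markers summed to 533 and 372 CPM against 299.8 and 242 CPM, with 2 of 6 rising and 3 falling (1 falling without OVA-1 or NI-1 or under DESeq2). Langerhans cell and epithelial markers summed to 130.5 and 168 CPM against 48.7 and 40.7 CPM, higher in the same libraries as the maturation genes. Of their 3 tested members Cd24a and Ly75, which DC also express, rose (1 of them without OVA-1, OVA-2 or NI-1 or under DESeq2, 0 without NI-2), while langerin (Cd207) was too low to test, at 4.16 and 2.42 CPM against 1.48 and 0.798 CPM. The part of such cells in the changes below was not tested. Listed markers at 0 in all 4 libraries were Cd300c of plasmacytoid DC, Pax5 of B cells, Klra8 of NK cells, Mpo of neutrophils, Mertk of macrophages, and Col1a2, Col3a1, Pdpn, Cdh5, Lyve1 and Ccl21a of stroma and endothelium.

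**Figure D1:**
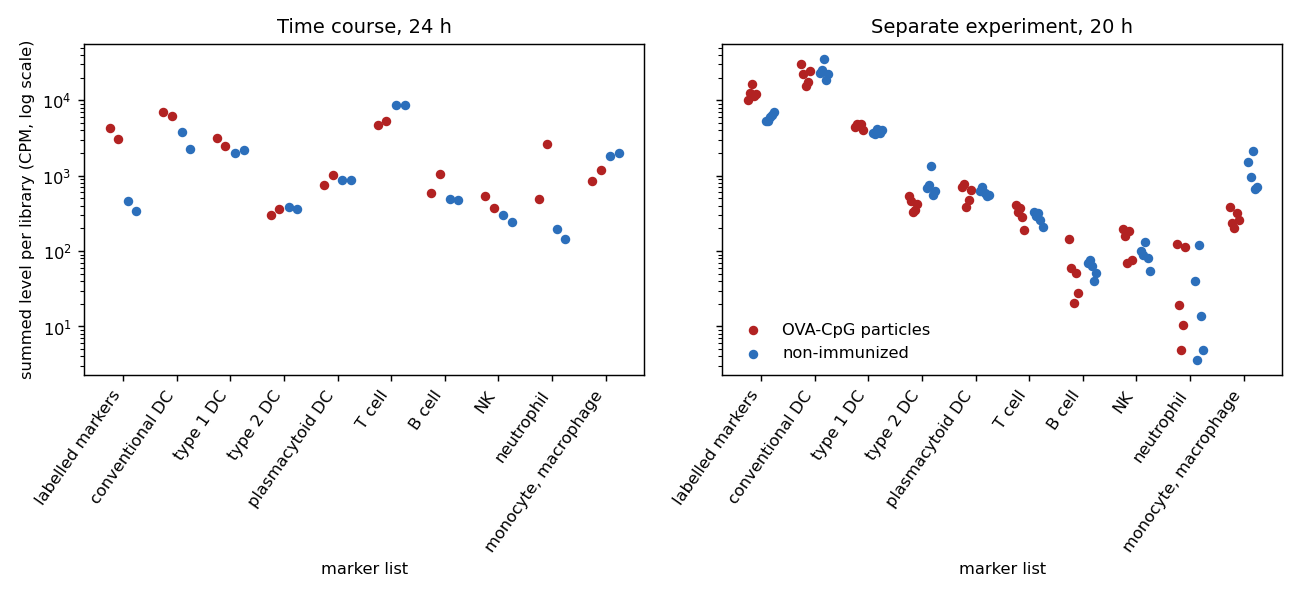
Summed level of each marker list in every library (CPM, log scale), for the time course in the left panel and the 20 h experiment in the right panel, with a point per library and OVA-CpG libraries left of non-immunized ones. T cell markers lie at 4726 and 5288 CPM at 24 h against 8799 and 8779 CPM without immunization, and in the 20 h experiment they reach at most 406 CPM in any library.

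Maturation and migration genes rose as a whole, in a list chosen with earlier results of these data known. All 24 listed genes were tested and all 24 rose, with a median log2 change of 3.30, and all 24 were called when any of the 4 libraries was left out. Ccr7, the receptor for lymph node chemokines, had 1946 and 1318 CPM in the OVA 24 h libraries, against 314 and 255 CPM in the non-immunized libraries (log2 2.52 ± 0.22, adjusted p = 1.07e-06). Fscn1, which bundles actin in the dendrites of mature DC, had 1523 and 1179 CPM at 24 h against 85.7 and 31.9 CPM (log2 4.51 ± 0.39, adjusted p = 1.01e-06). Both OVA 24 h libraries lay far above both non-immunized ones for each of these genes. Socs2, an inhibitor of cytokine signals, had 761 and 512 CPM against 58.3 and 46.3 CPM (log2 3.60 ± 0.25, adjusted p = 2.5e-07). Cd83, which stabilizes MHC class II and Cd86 on the surface, had 275 and 232 CPM against 48 and 31.9 CPM (log2 2.65 ± 0.26, adjusted p = 2.37e-06).

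Within this group the second OVA 24 h library was lower than the first for 23 of the 24 genes, Adam8 being the exception. Tmem123 had 2891 and 2301 CPM in OVA 24 h libraries and 380.3 and 329 CPM in non-immunized libraries. Cd200, a ligand that dampens myeloid cells through its receptor, had 69.4 and 50.7 CPM against 6.65 and 1.6 CPM, a log2 change of 3.79 ± 0.46. Il4i1, an enzyme that breaks down phenylalanine and restrains T cells, had 1048 and 719 CPM against 129 and 52.6 CPM (log2 3.27 ± 0.35, adjusted p = 7.06e-06). The serpin Serpinb6b and the zinc finger protein Zmynd15 changed by 3.37 ± 0.27 and 3.62 ± 0.28. The smallest change of the group was that of Adam8, a surface protease, with 347 and 359.9 CPM against 174 and 165 CPM (log2 1.06 ± 0.19, adjusted p = 0.00111).

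**Figure D2:**
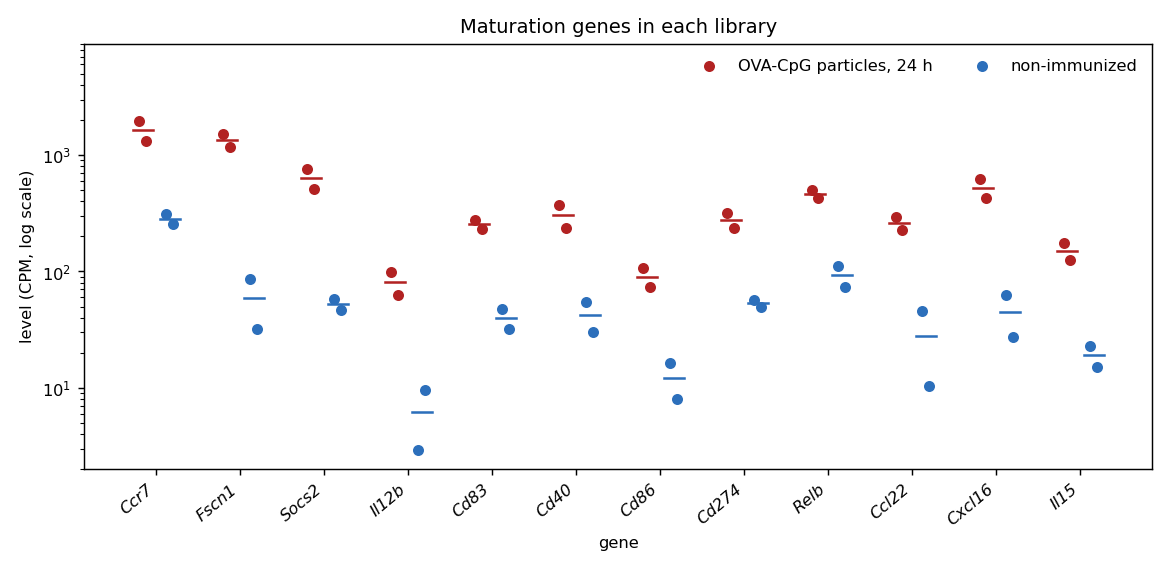
Level of maturation genes in each library (CPM, log scale), with the OVA 24 h libraries left of the non-immunized libraries for each gene and a line at the mean of each pair. The groups do not overlap for any gene shown, and Fscn1 stands at 1523 and 1179 CPM in OVA 24 h libraries against 85.7 and 31.9 CPM in non-immunized libraries.

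Levels of the labelled markers were also divided by that of Flt3 in the same library, a measure chosen after the values were seen. The ratio of Ccr7 to Flt3 was 13.2 and 9.65 in the OVA 24 h libraries and 13.3 and 16 in the non-immunized libraries. That of Fscn1 to Flt3 was 10.3 and 8.64 at 24 h and 3.62 and 2 without immunization. The ratio of Socs2 to Flt3 was 5.17 and 3.75 at 24 h and 2.47 and 2.9 without immunization, and that of Il12b to Flt3 was 0.67 and 0.46 at 24 h and 0.125 and 0.6 without immunization. Against Flt3, Fscn1 and Socs2 were thus higher in both OVA 24 h libraries, while the groups overlapped for Il12b and Ccr7 was not higher. Divided by the MHC class II chain H2-Aa, the values for Ccr7 were 0.796 and 0.589 at 24 h and 0.267 and 0.402 without immunization, and for Fscn1 0.623 and 0.527 against 0.0729 and 0.0502. Flt3 and H2-Aa themselves rose at 24 h.

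Costimulatory ligands, which T cells need beside antigen, rose in 4 of 7 tested cases and coinhibitory ligands in 5 of 6 (3 without OVA-1), and none of either group fell. Cd40, which receives help from T cells, had 375 and 237 CPM in the OVA 24 h libraries, against 54.6 and 30.3 CPM in the non-immunized libraries (log2 2.83 ± 0.29, adjusted p = 4e-06). Cd86, a ligand of Cd28, had 107 and 73.7 CPM against 16.2 and 7.98 CPM (log2 2.86 ± 0.38, adjusted p = 6.41e-05). The groups were apart for both genes. Cd80, the other ligand of Cd28, was at 19.4 and 14.5 CPM against 5.91 and 0 CPM and did not pass (adjusted p = 0.076). Icosl rose by 1.51 ± 0.39, a call lost without OVA-2 or NI-2.

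Among coinhibitory ligands Cd274, which engages PD-1 on T cells, had 321 and 234 CPM in the OVA 24 h libraries, against 56.9 and 49.5 CPM in the non-immunized libraries (log2 2.38 ± 0.22, adjusted p = 1.5e-06). Pdcd1lg2, the second ligand of PD-1, had 33.3 and 18.1 CPM against 3.69 and 7.18 CPM (log2 2.21 ± 0.50, adjusted p = 0.00592), a call lost without OVA-1 or NI-1. Pvr, a ligand of the receptors Tigit and Cd226, had 121 and 89.4 CPM against 31.8 and 27.9 CPM, a log2 change of 1.80 ± 0.26. Havcr2 (TIM-3) stood at 6.94 and 2.42 CPM against 6.65 and 6.38 CPM and was not called. Costimulatory and coinhibitory ligands therefore rose side by side in the same libraries.

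NF-kB pathway genes rose in 12 of 20 tested cases, with a median log2 change of 1.05, and none fell. Relb, a subunit of the alternative pathway, had 498 and 429.96 CPM in the OVA 24 h libraries, against 111 and 74.2 CPM in the non-immunized libraries (log2 2.32 ± 0.22, adjusted p = 1.99e-06), and its partner Nfkb2 had 561 and 333 CPM against 131 and 118 CPM (log2 1.84 ± 0.27, adjusted p = 0.000143). Subunits of the classical pathway did not pass, with Nfkb1 at 144 and 182 CPM against 168 and 173 CPM and Rela at 154 and 189.6 CPM against 149.9 and 156 CPM. Rel was at 61.1 and 22.9 CPM against 11.1 and 20.7 CPM (adjusted p = 0.0536). Feedback inhibitors rose, Tnfaip3 to 182 and 191 CPM against 51.7 and 60.6 CPM (log2 1.73 ± 0.25, adjusted p = 0.000127) and Nfkbia by 1.19 ± 0.24, a call lost without OVA-1. The signalling adaptor Traf1 changed by 1.87 ± 0.20 and the ubiquitin ligase Birc2, which controls cell death and NF-kB, by 1.79 ± 0.21.

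Survival and cell death genes rose in 13 of 21 tested cases, on both sides of the balance, and none fell (8 without NI-2). Bcl2l14, a member of the Bcl2 family, had 207 and 103 CPM in the OVA 24 h libraries, against 3.69 and 1.6 CPM in the non-immunized libraries (log2 5.77 ± 0.46, adjusted p = 5.74e-07), and stood at 171 to 361 CPM against 48.9 to 100.5 CPM in the 20 h experiment (log2 2.00 ± 0.32, adjusted p = 0.000235). Serpinb9, an inhibitor of granzyme B, had 237 and 144 CPM against 24.4 and 28.7 CPM (log2 2.83 ± 0.32, adjusted p = 1.16e-05). Both libraries at 24 h exceeded both controls for these genes. Cflar, an inhibitor of caspase 8, changed by 1.44 ± 0.21, and the survival factor Bcl2a1b by 2.26 ± 0.32, although near-identical copies of Bcl2a1 may share reads. Bcl2 itself stood at 205 and 149.8 CPM against 218 and 224 CPM and was not called.

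Cytokine genes rose in 6 of 11 tested cases (3 without NI-2) and 1 fell. Il12b, the shared p40 chain of IL-12 and IL-23, had 98.6 and 62.8 CPM in the OVA 24 h libraries, against 2.95 and 9.57 CPM in the non-immunized libraries (log2 3.67 ± 0.71, adjusted p = 0.0019), while the partner chains Il12a, Il23a and Il27 had too few counts to test. Il15, which sustains memory CD8 T cells and NK cells, had 175 and 126 CPM against 22.9 and 15.2 CPM (log2 2.96 ± 0.34, adjusted p = 1.27e-05). The chain that presents it, Il15ra, had 298 and 207 CPM against 36.9 and 26.3 CPM (log2 2.98 ± 0.30, adjusted p = 3.86e-06). Ligand and presenting chain of IL-15 thus rose together in both 24 h libraries. Il18bp, a soluble antagonist of IL-18, had 84.7 and 64 CPM against 4.43 and 3.19 CPM (log2 4.23 ± 0.38, adjusted p = 1.31e-06), while Il18 was at 22.2 and 15.7 CPM against 13.3 and 7.98 CPM and was not called. Il6 had 55.5 and 55.6 CPM against 8.12 and 6.38 CPM (log2 2.91 ± 0.64, adjusted p = 0.00533), a call lost without NI-2. Tgfb1 fell, with 114 and 95.4 CPM against 159.5 and 193 CPM (log2 -0.75 ± 0.20, adjusted p = 0.0171), a call made neither by DESeq2 nor without OVA-1, OVA-2 or NI-2. Tnf and the lymphotoxin chain Ltb did not pass, Ltb at 1599 and 1512 CPM against 1617 and 1364 CPM.

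Chemokines rose in 9 of 15 tested cases and 1, Ccl2, fell. There were 5 rises without OVA-1 or OVA-2 and 4 without NI-2, and the fall was not called in those fits, under DESeq2 or with the 2 groups compared alone. Ccl5, a chemoattractant for T cells and monocytes, had 6493 and 3996 CPM in the OVA 24 h libraries, against 1553 and 1165 CPM in the non-immunized libraries (log2 1.95 ± 0.27, adjusted p = 8.52e-05). Ccl22, which draws cells through Ccr4, had 296 and 226 CPM against 45.8 and 10.4 CPM (log2 3.19 ± 0.41, adjusted p = 3.85e-05). Cxcl16, a ligand of Cxcr6 held on the cell surface, had 620.5 and 429 CPM against 62.8 and 27.1 CPM (log2 3.53 ± 0.34, adjusted p = 2.53e-06). The groups did not overlap for any of these genes. Cxcl10, a ligand of Cxcr3, had 1769.8 and 1017 CPM against 183 and 143 CPM (log2 3.09 ± 0.26, adjusted p = 7.74e-07), and Cxcl9 had 107 and 43.5 CPM against 24.4 and 14.4 CPM, a call lost without OVA-1 or NI-2. Ccl2, a chemokine for monocytes, had no count at 24 h against 2.95 and 7.18 CPM, at least 2.57-fold lower with a floor of 3 counts over the group.

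Among receptors for cytokines 4 of 25 rose (7 with the 2 groups compared alone) and 3 fell (1 without NI-2). Csf2rb, the chain shared by the receptors for GM-CSF, IL-3 and IL-5, had 929 and 791 CPM in the OVA 24 h libraries, against 173 and 187 CPM in the non-immunized libraries (log2 2.25 ± 0.43, adjusted p = 0.00148). Tnfrsf4 (OX40) had 147 and 114 CPM against 26.6 and 24.7 CPM (log2 2.33 ± 0.31, adjusted p = 5.74e-05) and the IL-2 receptor alpha chain Il2ra had 212 and 147 CPM against 81.2 and 66.2 CPM (log2 1.28 ± 0.23, adjusted p = 0.000856). Csf1r, the receptor for M-CSF on monocytes and macrophages, fell to 37.5 and 44.7 CPM against 204 and 289.5 CPM (log2 -2.58 ± 0.38, adjusted p = 0.000175). The interferon receptor chains Ifnar1 and Ifnar2 were not called, at 79.1 and 107 CPM against 118 and 136 CPM and 94.4 and 58 CPM against 65.7 and 62.2 CPM.

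Receptors that guide cell traffic moved in both directions, with 3 of 14 higher (1 without OVA-1, NI-1 or NI-2, 5 without a filter or with the 2 groups compared alone) and 5 lower (2 without OVA-1, 3 without NI-1). Beside Ccr7, the oxysterol receptor Gpr183, which positions DC and B cells in lymphoid organs, and the Cxcl12 receptor Cxcr4 rose, with 0.68 ± 0.19 and 0.94 ± 0.28. Both calls were lost without OVA-1, NI-1 or NI-2, and that of Cxcr4 also under DESeq2. Cx3cr1, a receptor of monocytes and their progeny, fell to 4.16 and 3.62 CPM against 73.1 and 90.1 CPM (log2 -4.35 ± 0.80, adjusted p = 0.00122). Cxcr3, a receptor of activated T cells, NK cells and plasmacytoid DC, had 5.55 and 6.04 CPM against 43.6 and 52.6 CPM (log2 -3.02 ± 0.45, adjusted p = 0.000171). Ccr9, carried by plasmacytoid DC and gut-homing T cells, had 178 and 221 CPM against 490.4 and 442 CPM, and S1pr1, the receptor for exit from lymph nodes, had 157 and 207 CPM against 380.3 and 353 CPM. Both calls were lost without OVA-1, and that of S1pr1 also without NI-1. T cell markers were lower in the same libraries, at the sums given above, and their part in these falls was not tested.

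Interferon-induced genes rose broadly at 24 h. Of 26 antiviral effectors 25 rose, with a median of 2.78, and 23 to 25 were called when a single library was left out. Isg15 had 2240.3 and 1646 CPM in the OVA 24 h libraries, against 217 and 115 CPM in the non-immunized libraries (log2 3.55 ± 0.27, adjusted p = 4.81e-07). Rsad2 had 1713 and 1233 CPM against 119 and 63 CPM (log2 4.01 ± 0.28, adjusted p = 2.5e-07). Ifi44, an interferon-induced protein, had 289 and 280.2 CPM against 8.86 and 10.4 CPM (log2 4.87 ± 0.34, adjusted p = 2.5e-07), the largest change of the group. For each of them both 24 h libraries were far above both controls. Mx1, an antiviral GTPase, changed by 3.18 ± 0.24 and Cmpk2, a mitochondrial nucleotide kinase, by 3.04 ± 0.22. Ifitm3, which blocks viral entry, was the member that did not pass, at 314 and 221 CPM against 343 and 266 CPM.

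All 16 tested interferon-induced GTPases rose, with a median of 1.93. Gbp2 had 1217 and 836 CPM against 124 and 113 CPM (log2 3.11 ± 0.22, adjusted p = 2.5e-07), and Iigp1, an immunity-related GTPase that attacks the vacuoles of parasites, had 789.8 and 623 CPM against 70.9 and 73.4 CPM (log2 3.29 ± 0.22, adjusted p = 2.5e-07). Every 24 h value was above every control value for both. Of 14 PARP and TRIM genes 13 rose, including Parp14, a mono-ADP-ribosyltransferase (2.01 ± 0.18), its partner Dtx3l (2.03 ± 0.26) and Trim30a (2.14 ± 0.25). Trim26 was not called, at 95.8 and 78.5 CPM against 79.8 and 62.2 CPM.

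Sensors of nucleic acids rose in 8 of 18 tested cases. These covered the cytosolic RNA sensors Ifih1, with 221 and 175 CPM against 41.4 and 44.7 CPM (log2 2.20 ± 0.22, adjusted p = 3.61e-06), and Ddx58 (RIG-I), with 303 and 289 CPM against 125 and 107 CPM (log2 1.35 ± 0.18, adjusted p = 6.71e-05). Zbp1, a sensor of Z-form nucleic acid that can trigger cell death, had 477 and 364 CPM against 123 and 94.1 CPM (log2 1.95 ± 0.23, adjusted p = 1.71e-05). Tlr9, the receptor for CpG, was too low to test, at 1.39 and 1.21 CPM against 1.48 and 0.798 CPM, and its adaptor Myd88 was at 98.6 and 121 CPM against 106 and 104 CPM and was not called. The DNA sensing adaptor Tmem173 (STING) was not called either, at 162 and 178 CPM against 184 and 168 CPM.

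Of the IRF, STAT and SOCS genes 10 of 20 rose. Irf7, which amplifies type I interferon, had 1329.8 and 1015 CPM in the OVA 24 h libraries, against 282 and 176 CPM in the non-immunized libraries (log2 2.35 ± 0.23, adjusted p = 2.24e-06). Stat2 had 496 and 459 CPM against 122 and 84.6 CPM (log2 2.21 ± 0.27, adjusted p = 2.41e-05). Irf9, which binds Stat2 in the interferon-activated complex, was at 226 and 343 CPM against 204 and 197 CPM and was not called. Usp18, which removes Isg15 from proteins and shuts off the interferon receptor, had 536 and 490.4 CPM against 84.2 and 33.5 CPM (log2 3.11 ± 0.32, adjusted p = 4.45e-06). The rises thus covered both genes for factors that carry the interferon signal and genes that limit it. Irf4 and Irf8, which support different conventional DC lineages, changed by 2.18 ± 0.38 and 1.97 ± 0.35.

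**Figure D3:**
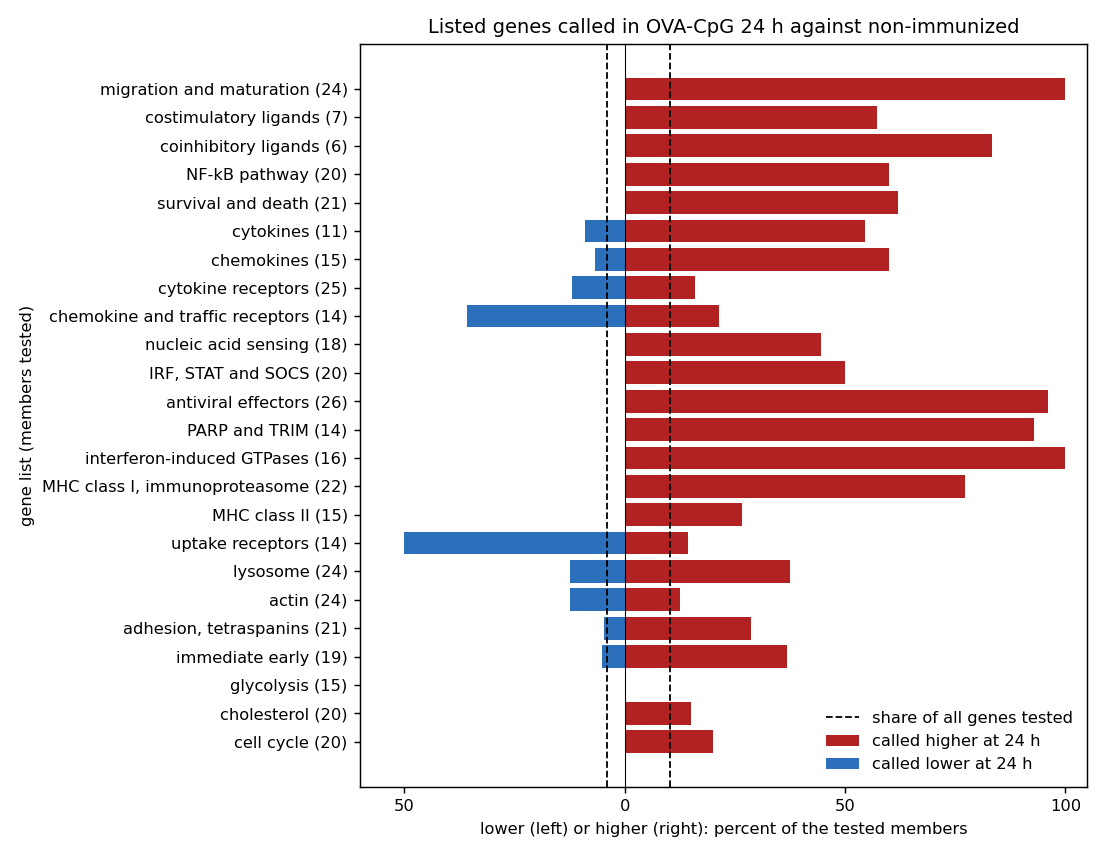
Share of tested members called higher (right) or lower (left) at 24 h in the gene groups shown, as a percent of the members tested. The number tested is in brackets, and dashed lines stand at the shares over all genes tested (10.2% and 3.92%). Lists of Notch genes (1 of 6 tested called higher) and of regulatory enzymes (2 of 4) are not shown, and neither held a fall. Maturation genes and interferon-induced GTPases reach 100%, uptake receptors hold 7 falls of 14, and no glycolysis gene was called.

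Genes of MHC class I presentation rose in 17 of 22 tested cases, with a median of 1.14. H2-T23, a nonclassical class I chain (Qa-1), had 741 and 649 CPM in the OVA 24 h libraries, against 278 and 271 CPM in the non-immunized libraries (log2 1.34 ± 0.17, adjusted p = 4.57e-05), though related class I genes may share reads. Psmb9, a catalytic subunit of the immunoproteasome, had 1162 and 944 CPM against 357 and 321 CPM (log2 1.63 ± 0.19, adjusted p = 1.27e-05). Psme1, a subunit of the proteasome activator, changed by 1.30 ± 0.17, Tapbp, which helps to load peptide, by 1.30 ± 0.18, and Nlrc5, the transactivator of class I genes, by 1.39 ± 0.18. The general chaperones Calr and Canx did not pass, Calr at 471 and 565 CPM against 465 and 459 CPM.

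Of the MHC class II genes 4 of 15 rose (1 under DESeq2 and without OVA-1 or NI-2). Of these Ifi30, a lysosomal thiol reductase that opens antigens, had 1294 and 841 CPM against 264 and 250.5 CPM (log2 2.05 ± 0.26, adjusted p = 3.79e-05) and kept its call under every alternative. H2-Aa had 2446 and 2236 CPM against 1176 and 636 CPM (log2 1.37 ± 0.35, adjusted p = 0.0131), H2-Eb1 changed by 1.31 ± 0.32 and the invariant chain Cd74 by 1.09 ± 0.32. In those 3 fits H2-Aa, H2-Eb1 and Cd74 lost their calls. H2-Ab1 was at 1599 and 1508 CPM against 1092 and 666 CPM and Ciita, the master regulator of class II, at 9.72 and 21.7 CPM against 22.2 and 20.7 CPM, and neither was called.

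Uptake receptors were the group with the largest share of falls among the pathway lists, 7 of 14 tested, with 2 rises and a median of -0.91 (4 falls without OVA-1). The C-type lectin gene Clec4a3 fell to 9.72 and 10.9 CPM at 24 h, against 89.4 and 65.4 CPM without immunization (log2 -2.89 ± 0.54, adjusted p = 0.00145). Clec4a1 had 23.6 and 8.45 CPM against 96.7 and 90.9 CPM (log2 -2.58 ± 0.43, adjusted p = 0.000473). Lrp1, an endocytic receptor, had 11.1 and 15.7 CPM against 64.2 and 63.8 CPM (log2 -2.23 ± 0.38, adjusted p = 0.00067). Both groups were apart for all 3 genes. Msr1, a scavenger receptor, held 3 counts in all at 24 h, 0.0887 times the non-immunized level (95% interval 0.0178 to 0.273, counting error only). The rises were those of Clec9a, a receptor for dead cells on type 1 conventional DC, and Ly75 (DEC-205). Neither of these rises was called by DESeq2, and with a library left out at most 1 of them was called.

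Lysosome and antigen processing genes split, with 9 of 24 higher and 3 lower (1 lower without OVA-1 or OVA-2, 0 without NI-2). Cd63, a tetraspanin of late endosomes, had 434 and 254 CPM against 27.3 and 19.9 CPM (log2 3.85 ± 0.45, adjusted p = 1.59e-05). The cathepsin Ctsh had 491 and 492 CPM against 144 and 102 CPM (log2 1.99 ± 0.20, adjusted p = 4.23e-06), the asparaginyl endopeptidase Lgmn changed by 1.96 ± 0.26, and the cholesterol carrier Npc2 by 1.70 ± 0.21. Cd68, a macrophage lysosomal glycoprotein, fell to 38.9 and 22.9 CPM against 74.6 and 85.3 CPM (log2 -1.38 ± 0.33, adjusted p = 0.00908), a call lost without OVA-2 or NI-2. Ctsd, Laptm5 and Ctsb were not called, Ctsd at 404 and 489 CPM against 465 and 441 CPM.

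Some genes of monocytes and macrophages fell at 24 h. Lyz2, the lysozyme of myeloid cells, had 81.9 and 106 CPM in the OVA 24 h libraries, against 576 and 641 CPM in the non-immunized libraries (log2 -2.69 ± 0.35, adjusted p = 3.99e-05). Beyond the marker list, fibronectin (Fn1) had 6.94 and 7.25 CPM against 70.9 and 138 CPM (log2 -3.85 ± 0.59, adjusted p = 0.000227) and complement C3 had 8.33 and 10.9 CPM against 73.1 and 86.9 CPM (log2 -3.03 ± 0.44, adjusted p = 0.000155). Ly6c2 and Apoe did not pass, Ly6c2 at 461 and 417 CPM against 699 and 605 CPM and Apoe at 226 and 588 CPM against 265 and 384 CPM. The falls of Csf1r, Cx3cr1, Lrp1, Msr1 and the Clec4a genes stood in the libraries in which the monocyte marker sum was lower, and the part of these cells in them was not tested.

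Further groups changed little or in part. None of 15 tested glycolysis genes was called, with 0 called in any fit that left out a library, and Ldha, lactate dehydrogenase, was at 429 and 464 CPM against 365 and 367 CPM. Of 20 cholesterol genes 3 rose (1 without OVA-1, NI-1 or NI-2), including the exporter Abcg1 (log2 1.19 ± 0.21, adjusted p = 0.000804). Of 20 cell cycle genes 4 rose (1 without OVA-1, NI-1 or NI-2). Actin regulators rose in 3 of 24 cases (5 without OVA-2) and fell in 3 (0 without OVA-1, NI-1 or NI-2, 1 without OVA-2 or under DESeq2), the rises being Fscn1, the actin monomer binder Tmsb4x (0.97 ± 0.18) and Myo1g (1.03 ± 0.21), whose call was lost without OVA-1. Adhesion genes rose in 6 of 21 cases and 1 fell (0 without OVA-1), Icam1 to 379 and 345 CPM against 112 and 109 CPM (log2 1.71 ± 0.20, adjusted p = 1.63e-05). Immediate early genes moved unevenly: 7 of 19 rose (4 without OVA-1 or NI-2), 9 of 19 had a positive change and the median was -0.24. The 1 fall was that of Nr4a1 (log2 -1.32 ± 0.42, adjusted p = 0.0484), a call lost when any single library was left out, under DESeq2 or its size factors and with the replicate block. The rises included Jun (2.99 ± 0.33), the nuclear receptor Nr4a3 (2.97 ± 0.50) and the phosphatase Dusp1 (2.62 ± 0.36). Batf3, a factor needed by type 1 conventional DC, had 371 and 223 CPM against 31 and 20.7 CPM (log2 3.50 ± 0.36, adjusted p = 4.56e-06), and Spib, a factor of plasmacytoid DC and B cells, had 155 and 245 CPM against 24.4 and 27.1 CPM (log2 2.96 ± 0.36, adjusted p = 2.35e-05).

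Some genes were near absence without immunization. Where genes averaged 10 CPM or more, the largest rises by rule were led by the cytotoxic protease Gzmb, with 122 and 71.3 CPM in OVA 24 h libraries and 2.22 and 0 CPM in non-immunized libraries, 82.6 times the level (95% interval 27.7 to 405 for counting error). In the 20 h experiment Gzmb stood at 1.41 to 35.4 CPM against 0 to 0.616 CPM (log2 6.14 ± 1.12, adjusted p = 0.000763). The NK cell receptor gene Klrd1 fell, at 38.9 and 41.1 CPM against 139.6 and 112 CPM (log2 -1.65 ± 0.29, adjusted p = 0.000791). Scn4b, a sodium channel subunit, had 30.5 and 33.8 CPM against 0.739 and 0 CPM, 84.3 times the level (95% interval 14.4 to 3394). Cacna1s, a calcium channel subunit, had 107 and 74.9 CPM against 2.22 and 1.6 CPM (log2 5.47 ± 0.52, adjusted p = 1.87e-06), and Arhgap22, a Rac regulator, 355 and 293 CPM against 11.8 and 11.2 CPM (log2 4.80 ± 0.35, adjusted p = 2.9e-07). Both were high in each 24 h library, as the rule that named them required no overlap between the groups. The actin-associated palladin gene Palld had 40.3 and 31.4 CPM against 1.48 and 0 CPM, 46.4 times the level (95% interval 12.2 to 392). The neutrophil granule gene Ltf also stood among the largest rises, at 22.2 and 116 CPM against 1.48 and 3.19 CPM, and was highest in the library with the highest neutrophil marker sum.

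Dll4, a Notch ligand that directs T cell fate, had 18 and 13.3 CPM at 24 h against 0.739 and 0.798 CPM, 20.2 times the level (95% interval 5.02 to 177). Aldh1a2, which makes retinoic acid and so supports regulatory and gut-homing T cells, had 11.1 and 14.5 CPM against 0.739 and 0 CPM, 33.7 times the level (95% interval 5.39 to 1397). The call of Dll4 was lost without OVA-1, NI-1 or NI-2, and that of Aldh1a2 without OVA-2 or NI-2. Hpgd, which degrades prostaglandins, headed the falls, with 1 count in all at 24 h against 30.3 and 18.3 CPM, 0.0263 times the level (95% interval 0.000657 to 0.152), and its call was lost without OVA-1 or NI-1.

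The 24 h response was then set beside that 12 h after the same particles. Of all genes tested 839 (8.9%) differed between the times, 474 higher (5.03%) and 365 lower (3.87%) at 24 h (293 in all without OVA-1, 369 or 420 without a 12 h library). Of the 24 maturation genes 23 were higher at 24 h than at 12 h, with a median log2 difference of 2.24. Ccr7 had 1946 and 1318 CPM at 24 h, against 306 and 309 CPM at 12 h (log2 2.41 ± 0.22, adjusted p = 7.7e-06). The OVA 12 h libraries were close to the non-immunized values of Ccr7 given above, and the OVA 24 h libraries were apart from both. Ccr7, Fscn1, Socs2 and Il12b summed to 706 and 619 CPM 12 h after OVA-CpG particles. After CpG-only particles they summed to 2161 and 2413 CPM at 12 h and to 2261 and 1549 CPM at 24 h. The low sum at 12 h was thus seen with OVA-CpG particles only, and this difference between particles was not tested. Cxcl16 had 620.5 and 429 CPM at 24 h against 101 and 61.9 CPM at 12 h (log2 2.65 ± 0.33, adjusted p = 0.000113), and Batf3 371 and 223 CPM against 76.7 and 38.9 CPM (log2 2.30 ± 0.34, adjusted p = 0.000384).

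Interferon-induced genes showed another course. Of 26 antiviral effectors 5 were lower at 24 h than at 12 h and 1, Ifi44, was higher, and none of 16 GTPases was called. Without OVA-1, OVA-2 or either 12 h library 1 to 3 of the effectors were lower, and Ifi44 lost its call without OVA-1 or the second 12 h library. Cxcl10 had 1769.8 and 1017 CPM at 24 h against 7066 and 5548 CPM at 12 h (log2 -2.18 ± 0.24, adjusted p = 3.61e-05). Cxcl11 had 5.55 and 2.42 CPM at 24 h against 68.2 and 43.2 CPM at 12 h (log2 -3.82 ± 0.55, adjusted p = 0.000338). Both of these ligands of Cxcr3 were lower at 24 h in each library, as was Cxcl9, whose call was lost without OVA-2. Gbp2 stood at 1217 and 836 CPM against 1256 and 1046 CPM and was not called. Il6 was not called either, at 55.5 and 55.6 CPM at 24 h and 76.7 and 48.9 CPM at 12 h.

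Monocyte genes were high at 12 h and low at 24 h. Of 9 tested monocyte and macrophage markers 8 were lower at 24 h than at 12 h (5 without OVA-1), and their sums were 849 and 1193 CPM at 24 h and 2924 and 2605 CPM at 12 h. Fcgr1, the high-affinity receptor for IgG, had 8.33 and 12.1 CPM at 24 h against 303 and 268 CPM at 12 h (log2 -4.77 ± 0.38, adjusted p = 4.71e-06). Ccl2 had no count at 24 h against 112 and 76.3 CPM at 12 h, at least 51.2-fold lower. The metallothionein genes Mt2 and Mt1, which bind zinc and copper, were among the largest rises, Mt2 at 112 and 41.1 CPM at 24 h against 0.852 and 4.32 CPM at 12 h (log2 5.04 ± 0.70, adjusted p = 0.000233) and Mt1 at 196 and 135 CPM against 10.2 and 15.8 CPM (log2 3.71 ± 0.33, adjusted p = 7.7e-06).

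**Figure D4:**
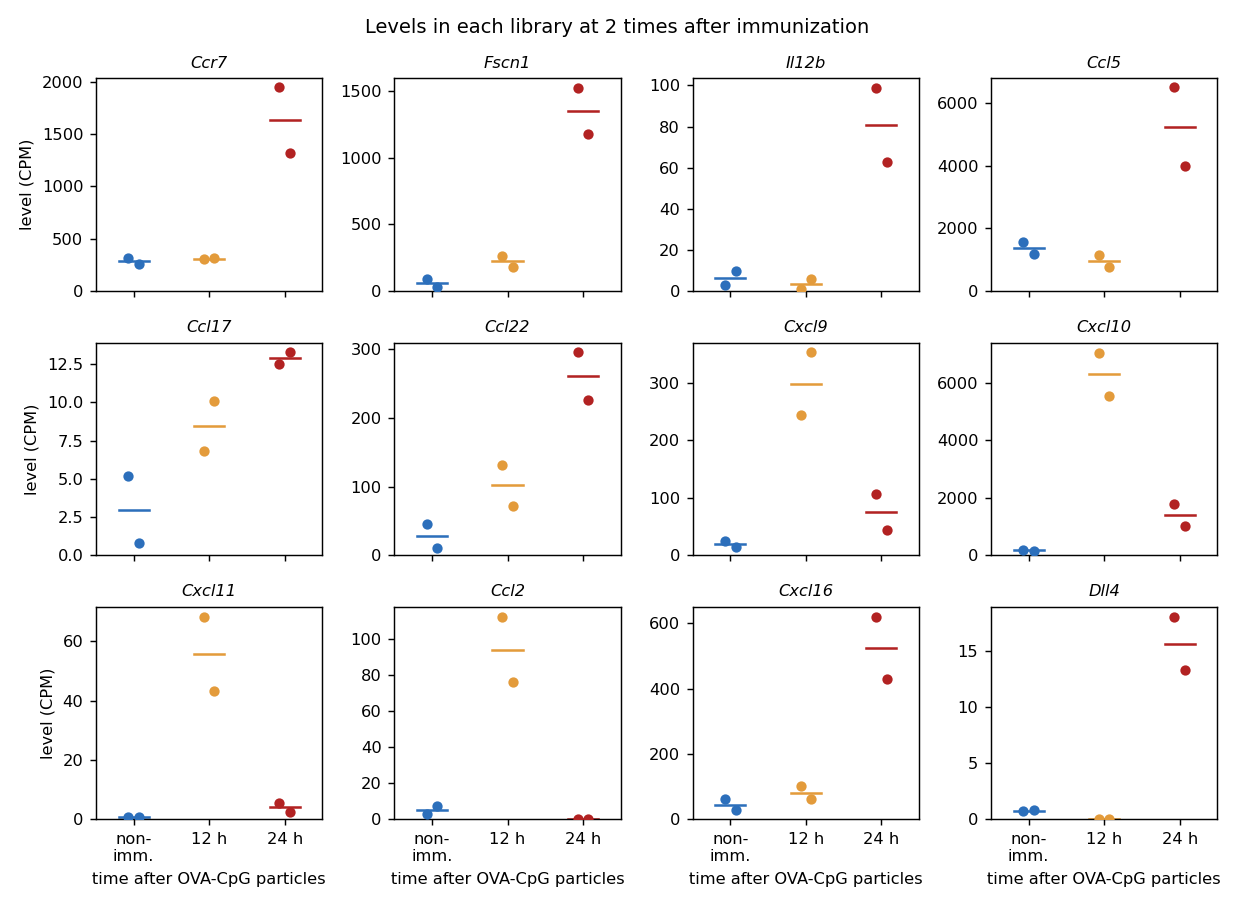
Level (CPM, linear axis from 0) of single genes in each library without immunization, at 12 h and at 24 h after OVA-CpG particles, with points for libraries and a line at each mean. Among the libraries shown, Ccr7 stands apart at 24 h only, while Cxcl10 is highest at 12 h, at 7066 and 5548 CPM. Libraries of CpG-only particles are not shown.

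Particles with OVA were compared with CpG-only particles at the same time. No gene was called by edgeR among 9428 tested (0%), while 959 had an unadjusted p under 0.05, and DESeq2 called 27 higher and 2 lower with OVA. The authors' deposited table marks 34 higher and 3 lower. All 24 maturation genes had a positive difference, with a median log2 value of 0.98, and none was called. Dnase1l3, a nuclease for DNA in vesicles and chromatin, had 303 and 271 CPM with OVA, 130.1 and 116 CPM with CpG alone and 18.5 and 19.9 CPM without immunization (OVA over CpG-only log2 1.23 ± 0.20, adjusted p = 0.0608). The early gene Arc, which serves DC migration in mice, had 103 and 105 CPM with OVA against 41.1 and 32.2 CPM with CpG alone (log2 1.54 ± 0.27, adjusted p = 0.09). The OVA libraries were above the CpG-only ones for both genes, which were named for their small p. Their adjusted p-values were above the threshold. Antiviral effectors had a median of -0.22, with Isg15 at 2240.3 and 1646 CPM with OVA against 2176 and 1923 CPM with CpG alone. Many genes were called when the first CpG-only library was left out, and almost none when the second was. Each of these fits rests on a single CpG-only library. The 2 CpG-only libraries differed more than other time course replicates, with a chi-square per degree of freedom of 6.27 against 2.24 to 3.10.

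The separate experiment at 20 h shares no library with the time course and had 5 libraries per group, with 367209 to 2052904 counts each. It called 1431 of 9159 genes tested (15.6%), 878 higher (9.59%) and 553 lower (6.04%). Over the 8324 genes tested in both experiments, 373 genes were higher in both (4.48%), 41.3% of the 903 higher at 24 h and 45.0% of the 829 higher at 20 h. Lower in both were 84 genes (1.01%), 30.2% of the 278 lower at 24 h and 16.6% of the 507 lower at 20 h. Of the genes higher at 24 h, 718 (79.5%) had the same sign at 20 h and 14 were called lower there. The experiments differ in time after immunization and in their libraries' content of T cell transcripts, whose part in these counts was not tested.

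Interferon-induced genes rose in both experiments. Of 26 antiviral effectors 24 were higher at 20 h, with a median of 2.86 beside 2.78 at 24 h. Isg15 had 832 to 1580.3 CPM in the OVA 20 h libraries and 31.8 to 105 CPM in their controls (log2 4.08 ± 0.46, adjusted p = 1.38e-05). Irf7 had 283 to 839 CPM against 16.7 to 66 CPM (log2 4.39 ± 0.50, adjusted p = 1.38e-05). The lowest OVA library exceeded the highest control for both genes. Lyz2 fell in both experiments, to 21.6 to 71.3 CPM at 20 h against 251 to 751 CPM (log2 -3.31 ± 0.36, adjusted p = 1.38e-05), as did Csf1r (-2.73 ± 0.34) and Clec4a3 (-2.35 ± 0.38).

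At 20 h 12 of the 24 maturation genes rose, with a median of 0.47, beside 3.30 at 24 h. Ccr7 had 2987 to 4709 CPM in the OVA 20 h libraries against 1273 to 1714 CPM in their controls (log2 1.29 ± 0.19, adjusted p = 0.000126), with its controls there above both non-immunized libraries of the time course. Fscn1 had 5380.4 to 10309.8 CPM against 2493 to 3931 CPM (log2 1.17 ± 0.20, adjusted p = 0.000399). Socs2 was not called at 20 h, at 1304 to 1606 CPM against 910.4 to 1349 CPM (adjusted p = 0.149). Flt3 was at 372 to 486 CPM against 349 to 444 CPM and was not called, whereas in the time course it rose. Batf3 and Relb changed by 0.06 ± 0.13 (adjusted p = 0.785) and 0.53 ± 0.16 (adjusted p = 0.0264), the call of Relb being lost when any of 5 single libraries was left out.

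A few genes were called in opposite directions. Of these 17, Ccl9, a chemokine of myeloid cells, was higher at 24 h, with 298 and 388 CPM against 118 and 117 CPM (log2 1.54 ± 0.49, adjusted p = 0.046), and lower at 20 h, with 25.1 to 73.8 CPM against 71.5 to 256 CPM (log2 -1.64 ± 0.32, adjusted p = 0.00143). The CD8 beta chain Cd8b1 was lower at 24 h (-1.83 ± 0.34) and higher at 20 h (1.64 ± 0.48). The 24 h call of Ccl9 was lost under DESeq2 and when any of the 4 libraries was left out, and the 20 h call of Cd8b1 was lost when any of 4 single libraries was left out. The difference between experiments was not tested, and both genes were singled out after their values were seen.

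**Figure D5:**
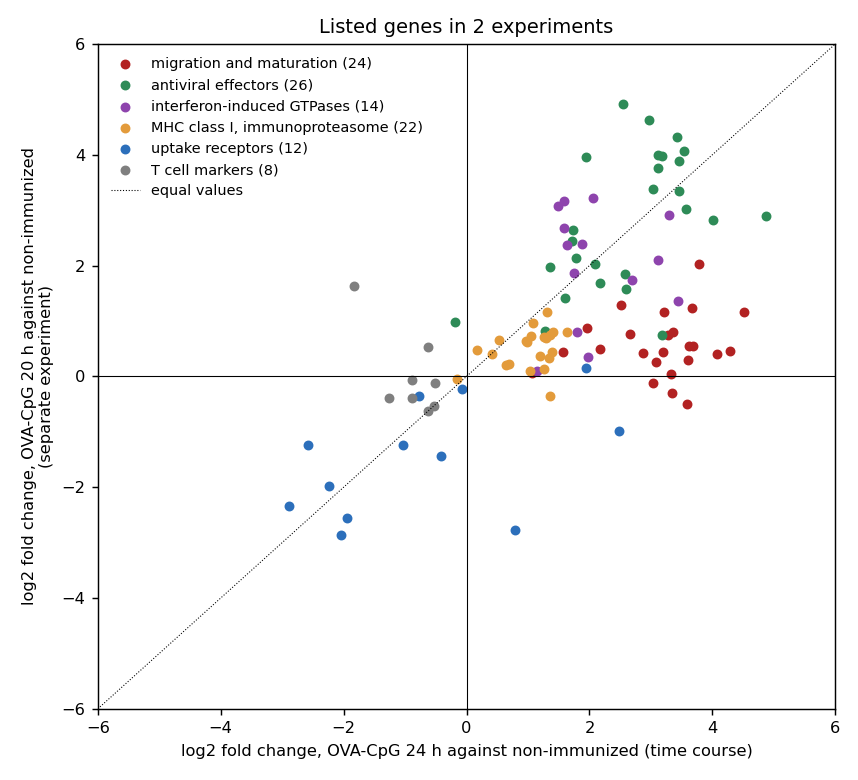
Log2 fold change of listed genes at 20 h (vertical axis, separate experiment) against that at 24 h (horizontal axis, time course), each over its own non-immunized libraries, with a dotted line of equal values. Antiviral effectors lie on both sides of that line, and all 24 maturation genes lie under it, with medians of 0.47 at 20 h and 3.30 at 24 h.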

How the data were processed

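Sorting followed a negative selection for DC, and polyA RNA went into plate-based libraries amplified by in vitro transcription, per the labels' protocols. The authors deposited raw counts per gene, and whether these are reads or unique molecules is not given in the sources used here. The submitters' processing notes name bcl2fastq, HISAT 0.1.6, HOMER and build mm9, with no roles. The authors also deposited log2 fold changes and adjusted p-values, used here only for their number of calls. Another 4 library columns matched no sample and were not used.

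The time course table held 24421 genes and that of the 20 h experiment 24411. The edgeR 4.0.16 quasi-likelihood fit (R 4.3.3, TMM scaling, filterByExpr by group) held all 10 time course libraries, which share 1 estimate of spread, with no block. The 20 h experiment was fitted apart with all 15 of its libraries, those of BSA-CpG particles included. The fit was also run on simulated counts, drawn from the spread of these data and a common mean profile, apart from the genes set to change. Those counts hold no shift in cell content, so they say nothing about such a shift, and the outcome is not reported here. Replicates differed by more than counting noise, with a chi-square per degree of freedom of 6.27 for the CpG-only 24 h pair and 2.24 to 3.10 for the other time course groups. Alternatives were DESeq2 1.42.0, the size factors of DESeq2, every gene kept whatever its counts, genes averaging 1 CPM or more, a block for the replicate number, the groups compared alone, and each library left out.

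The comparison, the gene lists and the tests were chosen with earlier results of these data known. Named genes were those followed throughout, the 12 largest called rises and falls that averaged 10 CPM or more and did not overlap between groups (8 and 8 against OVA 12 h, the 8 of smallest p against CpG alone), and in each list up to 5 called members of smallest p and 3 uncalled members of highest level. Adam8, Ccl9, Cd207, Cd68, Cxcr4, Gpr183, Ifnar1, Ifnar2, Il18, Nfkbia and Nr4a1 were chosen after their values were seen. Coordinates come from RefSeq on GRCm38.p6, not the authors' build. Exact 95% intervals and the floor of 3 counts cover counting error only. Figures used matplotlib 3.10.9. Some items are not reported here.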

Additional observations from a re-analysis of the deposited data

Results flagged for a closer look

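The following results stood out because the level at 24 h differed from that at 12 h after the same particles by a test of the difference itself (edgeR, adjusted p under 0.05). Values are log2 differences of 24 h over 12 h. Larger at 24 h by the naming rule were the metallothionein genes Mt2 (5.04) and Mt1 (3.71), Il12b (4.81), Sod3 (4.78), Efna2 (4.46), Ehf (3.87), Palld (3.65) and Nek6 (3.57). Sod3 rested on few counts at 12 h, with a ratio of 30.1 (95% interval 7.91 to 255, counting error only).

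Lower at 24 h by the same rule were Ccl2 (-9.49), Saa3 (-5.67), Msr1 (-5.49), Fn1 (-5.47), Igfbp6 (-5.02), Clec5a (-4.83), Cdkn3 (-4.79) and Fcgr1 (-4.77). For Ccl2, with no count at 24 h, the bound is at least 51.2-fold lower, and the fitted value depends on the prior count. Ratios with exact intervals were 0.0205 (0.00419 to 0.061) for Msr1, 0.0256 (0.000635 to 0.15) for Igfbp6, 0.0321 (0.00382 to 0.12) for Clec5a and 0.0294 (0.000726 to 0.173) for Cdkn3. Monocyte markers, which summed to 849 and 1193 CPM at 24 h and 2924 and 2605 CPM at 12 h, moved with these falls, and their part in them was not tested.

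Among genes followed throughout, higher at 24 h were Ccr7 (2.41), Fscn1 (2.60), Socs2 (2.27), Cd83 (1.56), Rel (2.10), Relb (1.62), Il15ra (1.56), Ccl5 (2.45), Ccl22 (1.32), Cxcl16 (2.65), Batf3 (2.30), Flt3 (2.52) and Dll4 (6.89). Dll4 had no count at 12 h, so that only a bound holds, at least 9.64-fold higher. Lower at 24 h were Cxcl9 (-1.99), Cxcl10 (-2.18), Cxcl11 (-3.82), Myd88 (-1.49), Lyz2 (-2.54) and Csf1r (-2.46). Of the 36 genes named and called in this comparison, 25 kept their call under every alternative. Ccl22 lost it under DESeq2 and when any single library was left out, Rel without OVA-1 or either 12 h library, Dll4 and Cdkn3 without OVA-1 or the first 12 h library (Cdkn3 also under DESeq2), Ehf, Sod3 and Il15ra without OVA-1, Il12b and Palld without the first 12 h library, Cxcl9 without OVA-2, and Ifi44 without OVA-1 or the second 12 h library.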

How the results depend on the processing

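No called result changed direction under the alternatives run, and the causes of the changes in counts below were not tested. For OVA 24 h over non-immunized, 1332 genes were called, 887 with DESeq2, 1672 without a filter (1131 higher, 541 lower), 1944 with the 2 groups compared alone (1249 higher, 695 lower), 1358 with the replicate block (981 higher, 377 lower) and 641 to 1054 with a library left out. Against CpG alone the count was 0, with 29 under DESeq2, 240 without a filter, 8 with a mean of at least 1 CPM, 0 with the block and 0 to 453 with a library left out. Against 12 h it was 839, with 519 under DESeq2, 892 with the block and 293 to 563 with a library left out. At 20 h it was 1431, with 1270 under the block, 1191 with the 2 groups compared alone and 994 to 1415 with a library left out. Calls shared by both experiments were 457, and 291 to 435 with a library left out. Of the listed pathway genes 203 were higher (153 to 195 with a library left out) and 25 lower (10 to 18). Of the 163 named genes called at 24 h, 110 kept the call under every alternative and 53 lost it under at least 1, 142 were called by DESeq2 and all 163 with the block. Library totals of 612017 to 1329203 counts limit genes of a few CPM, where 1 count changes a value. Replicate numbers are shared between groups, and the deviations of same-numbered libraries correlated at r = 0.0445 between OVA 24 h and non-immunized, 0.148 between OVA 24 h and CpG alone, -0.0141 between OVA 24 h and OVA 12 h and -0.0933 to 0.114 over the pairs at 20 h. With 2 libraries per group in the time course, and pairs of either sign up to 0.114 at 20 h, this does not show that the numbers pair samples. The pairing rests on a number alone.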

Other observations

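Genes that set DC subsets apart moved without a common direction at 24 h. Of 13 markers of type 1 conventional DC 3 rose and 1, Naaa, fell (0 under DESeq2 or without OVA-1, NI-1 or NI-2). Irf8, which this lineage needs, had 414 and 286 CPM in OVA 24 h libraries and 94.5 and 83 CPM in non-immunized libraries (log2 1.97 ± 0.35, adjusted p = 0.00081), while the chemokine receptor Xcr1 was at 4.16 and 7.25 CPM against 0.739 and 3.19 CPM and was not called. Of 9 markers of type 2 conventional DC 2 rose (1 under DESeq2, with the 2 groups compared alone, or without OVA-2, NI-1 or NI-2) and 1 fell. Klf4, a factor of that lineage and of monocytes, had 15.3 and 20.5 CPM against 60.6 and 51 CPM (log2 -1.62 ± 0.49, adjusted p = 0.0361), a call lost under DESeq2 and when any single library was left out. At 20 h 9 of 12 such markers fell and 1 rose, with a median log2 change of -1.30 beside -0.07 at 24 h. Klf4 was among the falls there (log2 -1.98 ± 0.48, adjusted p = 0.00685).

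Genes of other cells were uneven between the replicates of a group. Ly6d, a marker of plasmacytoid DC and B cell progenitors, had 77.7 and 184 CPM with OVA, 151 and 513 CPM with CpG alone and 36.9 and 38.3 CPM without immunization. Ms4a1 (CD20) of B cells had 47.2 and 141 CPM with OVA, 78.7 and 384 CPM with CpG alone and 19.2 and 17.5 CPM without immunization. S100a8, a calcium-binding protein of neutrophils, had 153 and 849 CPM with OVA, 332 and 39.8 CPM with CpG alone and 53.2 and 30.3 CPM without immunization. The second OVA library was the higher of its pair for all 3 genes, and the CpG-only libraries differed from each other in the same genes. Prss34, a serine protease of basophils and mast cells, had 47.2 and 64 CPM with OVA, 70.2 and 9.2 CPM with CpG alone and 0 and 3.19 CPM without immunization.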
